A study of Mus musculus with 6 samples.

Results

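The Iroquois homeobox genes Irx1 to Irx6 were followed in hearts of mice that lack miR-1-2 and in wild-type hearts. They were taken by name: every probe set to which the array annotation gives 1 of these 6 gene symbols. That gave 6 probe sets of 45037 and 6 genes of 18193, with 1 probe set for each Irx gene. The agreement of several probe sets of a gene could therefore not be examined. At postnatal day 10, 3 miR-1-2 knockout and 3 wild-type hearts were measured, each on 1 Affymetrix expression array. The knockout group is described only as miR-1-2 knockout and the other group only as wild type. The sources used here give no allele, strain, sex or litter, and nothing in them says that hearts were pooled. miR-1 is a muscle microRNA made from more than 1 gene, of which miR-1-2 is one, and the comparison asks how expression differs in its absence.

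Iroquois proteins are homeodomain transcription factors of the TALE class, named after the fly genes that pattern sensory bristles. In mouse and human their genes lie in 2 clusters of 3, Irx1, Irx2 and Irx4 on mouse chromosome 13 and Irx3, Irx5 and Irx6 on chromosome 8. In the mouse heart Irx4 marks ventricular muscle, Irx5 represses the potassium channel gene Kcnd2 across the ventricular wall, and Irx3 acts in the fast conduction system of the ventricle. Irx1 and Irx2 have been described in the ventricular septum of the mouse. Irx5 has been reported as a target of miR-1 in these mice, so its behaviour here is not independent of that earlier work.

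All levels are RMA values on the log2 scale, and differences are knockout minus wild type. Values over all probe sets ran from 2.64 to 14.59, and array medians lay between 6.03 and 6.11. No value of the deleted microRNA was analysed here, so the genotype rests on the labels alone. Ventricular muscle markers were bright in every heart, with a list mean of 13.71 to 13.79 in knockout and 13.68 to 13.77 in wild-type hearts. Xist, a noncoding RNA expressed from an inactivated X chromosome, was at 7.55 and 7.57 in knockout replicates 1 and 3, and at 12.19 in knockout replicate 2, against 11.91 to 12.13 in the wild-type hearts. The groups were therefore unbalanced in sex. Some fat markers, though not all, were high in both first replicates: Adipoq, a fat cell hormone, stood at 7.32 and 6.85 in knockout and wild-type replicate 1 and between 3.68 and 3.86 in the other hearts.

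Irx3, Irx4 and Irx5 were higher in the knockout hearts, by 1.29-fold, 1.35-fold and 1.32-fold. For these 3 genes, and by a small margin for Irx1, every knockout heart lay above every wild-type heart. Of all genes, 4.57% showed this separation upward, and of genes above the median level 6.21% did. None of the 6 Irx genes passed the adjusted threshold of 0.05 in limma over all genes, in a comparison where 0 of 18193 genes passed (0%), nor over all probe sets, of which 0.00666% passed. Without adjustment, Irx3, Irx4 and Irx5 had p below 0.05 and higher levels in knockout, as did 2.19% of all genes. In the fit that pairs hearts by replicate number (a block) the same 3 genes did, against 4.29% of all genes. Irx2 was slightly higher with overlapping groups, and Irx6 was level. The median difference was 0.27 over the 6 Irx genes and 4.8e-04 over all genes.

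**Figure D1:**
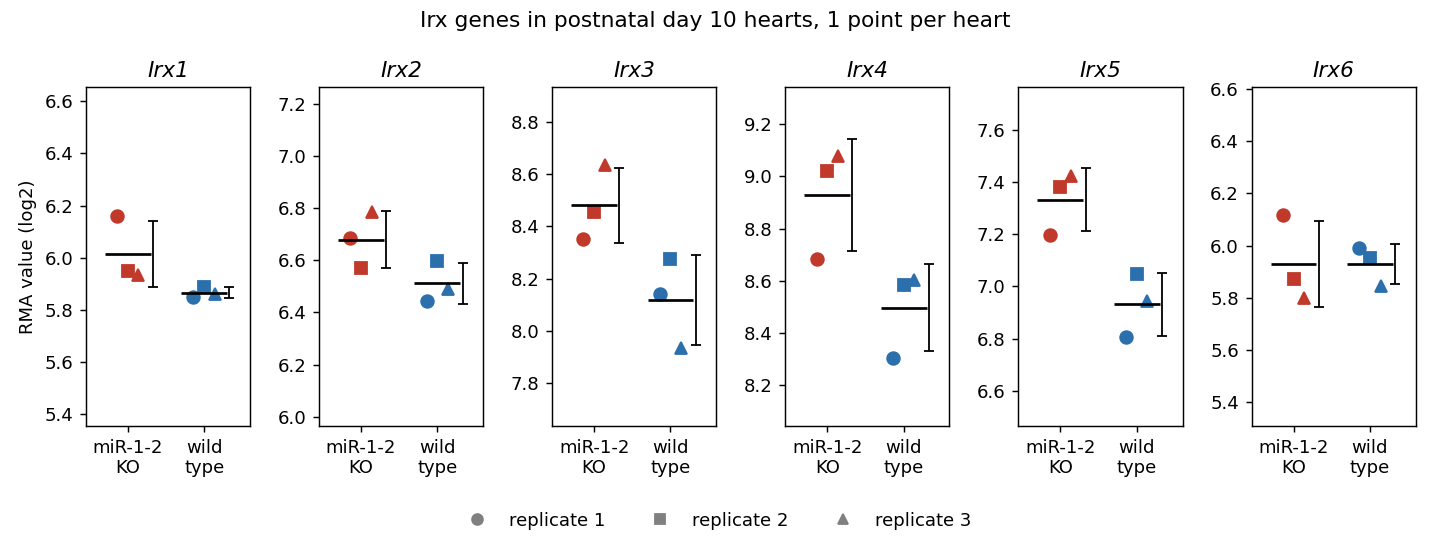
RMA values (log2, vertical axis) of the 6 Irx genes in miR-1-2 knockout hearts (red, left) and wild-type hearts (blue, right), 1 point per heart, with the symbol giving the replicate number, the line the group mean and the bar ± 1 SD (n = 3 each). Each panel spans the same height on its own range, and for Irx1, Irx3, Irx4 and Irx5 the red points all lie above the blue ones.

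Irx5 (probe set 1421072_at), the repressor of Kcnd2, had 7.20, 7.38 and 7.42 in knockout hearts, against 6.81, 7.05 and 6.94 in wild-type hearts. The groups were apart by 0.15 between the lowest knockout and the highest wild-type heart, the widest such gap of the 6 genes. The means were 7.33 ± 0.12 in knockout and 6.93 ± 0.12 in wild type (SD, n = 3 each), a difference of 0.40 ± 0.09 (SE) with a 95% confidence interval of 0.19 to 0.61. The interval corresponds to a 1.14-fold to 1.53-fold higher level. Irx5 did not pass over all genes (limma, adjusted p = 0.843). It stood at place 45 of 18193 by unadjusted p and at place 47 by signed difference.

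Irx4 (1419539_at), the ventricular member, had 8.68, 9.02 and 9.08 in knockout hearts, against 8.30, 8.58 and 8.60 in wild-type hearts. The first replicate was the lowest heart of each group, and the knockout replicate 1 exceeded the highest wild-type heart by 0.082. The means were 8.93 ± 0.21 and 8.50 ± 0.17, in knockout and wild type (SD, n = 3 each). The difference of 0.43 ± 0.12 (SE) had an interval of 0.15 to 0.72 and did not pass (limma, adjusted p = 1.00). It was the largest difference among the 6 genes and stood at place 37 of 18193 by signed difference and at place 122 by unadjusted p.

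Irx3 (1418517_at), the conduction system member, had 8.35, 8.46 and 8.63 in knockout hearts, against 8.14, 8.28 and 7.93 in wild-type hearts. Here the third replicates were the extremes, the highest knockout and the lowest wild-type heart. The means were 8.48 ± 0.14 in knockout and 8.12 ± 0.17 in wild type (SD, n = 3 each), a difference of 0.36 ± 0.11 (SE) with an interval of 0.12 to 0.61 that did not pass (limma, adjusted p = 1.00). Irx3 stood at place 70 by signed difference and at place 147 by unadjusted p. Between hearts of the same number the difference was 0.21, 0.18 and 0.70 for replicates 1, 2 and 3. For Irx4 these differences were 0.38, 0.44 and 0.48, and for Irx5 they were 0.39, 0.33 and 0.48.

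Of the septal pair, Irx2 (1426298_at) had 6.69, 6.57 and 6.78 in knockout hearts, against 6.44, 6.60 and 6.49 in wild-type hearts. Knockout replicate 2 lay below wild-type replicate 2, so the groups overlapped. The difference was 0.17 ± 0.08 (SE), with an interval of -0.019 to 0.36. Irx1 (1451983_at) had 6.16, 5.95 and 5.93 in knockout hearts, against 5.85, 5.89 and 5.86 in wild-type hearts. Its groups were apart by 0.044, and the spread in knockout came from replicate 1. The Irx1 difference was 0.15 ± 0.08 (SE), with an interval of -0.036 to 0.33, and it was 0.076 without knockout replicate 1.

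Irx6 (1427383_at), the third gene of the chromosome 8 cluster, had 6.12, 5.87 and 5.80 in knockout hearts, against 5.99, 5.95 and 5.84 in wild-type hearts. Its groups overlapped fully and both means were 5.93. The difference of -5.4e-04 had an interval of -0.22 to 0.22, which leaves out the point estimates of Irx3, Irx4 and Irx5. The Irx1 and Irx6 probe sets were dimmer than the median probe set (both averaged below 6.06 over the 6 arrays), and the array values carry no detection call, so a level near background cannot be told from a low transcript level. Signals of different probe sets do not rank the amounts of the 6 transcripts.

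Whether the members differed from each other was tested on the difference between 2 genes within each heart, for 15 pairs, by a two-sided exact permutation test over hearts. With 3 hearts against 3 this test cannot give a p below 0.10, so it could not pass 0.05 for any pair, and the smallest value after adjustment over the 15 pairs was 0.45. The 2 pairs at exact p = 0.1 were Irx1 over Irx6, by 0.15, and Irx5 over Irx2, by 0.23. Irx5 exceeded Irx6 in its difference by 0.40 (exact p = 0.3) and Irx4 exceeded Irx6 by 0.43 (exact p = 0.3). Between hearts of the same number, Irx5 exceeded Irx6 by 0.27, 0.41 and 0.53, and Irx4 exceeded Irx6 by 0.26, 0.52 and 0.52. Differences were of one sign in all 3 numbers for 9 of the 15 pairs, these 2 among them. The pairs reuse the same genes and hearts, so this count is no measure of support. An exact test on 3 such differences cannot give a p below 0.25. Irx4 and Irx5, on different chromosomes, differed by 0.031 in their responses (exact p = 1).

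Over the 6 hearts Irx4 and Irx5 had a Pearson correlation of 0.97, Irx3 and Irx5 of 0.88, Irx3 and Irx4 of 0.78, and Irx4 and Irx6 of -0.53. These coefficients describe 6 hearts that share the genotype split and the array processing. Irx4 and Irx5 were both lowest in wild-type replicate 1, then higher in the other wild-type hearts, in knockout replicate 1, in knockout replicate 2 and in knockout replicate 3. The genes ranked the hearts differently only between wild-type replicates 2 and 3. Among the 9095 other genes above the median level of all genes, those most like Irx5 were Mfsd11, Tax1bp1 and Slc25a39 (r of 0.998, 0.997 and 0.994 over 6 hearts). Those most like Irx4 were Lsm10, Efnb3 and Pfkl (0.996, 0.995 and 0.995), of which Efnb3 encodes an ephrin ligand and Pfkl the liver form of phosphofructokinase. Those most like Irx3 were D130051D11Rik, Prkca and Ubl7 (0.984, 0.974 and 0.973). With 6 hearts such values are common: 240 genes correlated above 0.9 with Irx5, 520 with Irx4 and 76 with Irx3.

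The start regions of Irx2, Irx3 and Irx4 were read from RefSeq (GRCm38.p6), from 250 bases before to 50 bases after the annotated start. They are the 3 Irx genes with a window in the table used, and they include Irx3 and Irx4, which were both higher, and Irx2, whose groups overlapped. The windows lie at chr13:72628570-72628869 on the plus strand for Irx2, chr8:91801605-91801904 on the minus strand for Irx3 and chr13:73260247-73260546 on the plus strand for Irx4. Capitals mark the E-box letters CANNTG and the GC-box letters GGGCGG, searched on both strands.

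Irx2: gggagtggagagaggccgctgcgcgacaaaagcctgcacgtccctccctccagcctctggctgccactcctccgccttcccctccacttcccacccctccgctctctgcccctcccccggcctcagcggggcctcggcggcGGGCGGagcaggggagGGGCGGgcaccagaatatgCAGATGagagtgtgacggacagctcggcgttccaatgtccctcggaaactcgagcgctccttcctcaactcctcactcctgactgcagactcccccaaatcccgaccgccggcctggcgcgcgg
Irx3: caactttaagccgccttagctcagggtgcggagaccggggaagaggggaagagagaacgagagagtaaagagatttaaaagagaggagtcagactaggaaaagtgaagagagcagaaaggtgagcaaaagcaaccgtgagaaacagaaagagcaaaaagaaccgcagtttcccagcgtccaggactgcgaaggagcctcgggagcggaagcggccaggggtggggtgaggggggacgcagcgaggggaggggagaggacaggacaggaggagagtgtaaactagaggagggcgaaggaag
Irx4: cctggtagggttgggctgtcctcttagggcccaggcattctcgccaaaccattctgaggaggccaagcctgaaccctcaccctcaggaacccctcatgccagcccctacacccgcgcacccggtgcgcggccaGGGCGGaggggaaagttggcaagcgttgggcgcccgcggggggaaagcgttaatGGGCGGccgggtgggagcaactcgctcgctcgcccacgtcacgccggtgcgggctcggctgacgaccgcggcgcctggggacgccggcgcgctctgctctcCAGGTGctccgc

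The Irx2 and Irx4 windows each held 2 GC-box matches and 1 E-box match, and the Irx3 window held 0 of either. GGGCGG occurs in 35.7% and CANNTG in 72.3% of 32851 RefSeq windows of this length. The palindrome ACANNTGT, described as a binding sequence of Iroquois proteins in the fly, had 0 matches in the 3 windows and occurs in 7.38% of all windows. TATAAA and AGATAA likewise had 0 matches and occur in 13.6% and 11.2%. CCAAT, present in 37.4% of all windows, matched 1 time in Irx2 and 0 times in Irx3 and Irx4. AAGTG, present in 46.4%, matched 1 time each in Irx2 and Irx3 and 0 times in Irx4. The windows held 69%, 56% and 70.7% G and C for Irx2, Irx3 and Irx4, against a median of 52.7% over all windows. They held 25, 14 and 31 CG dinucleotides, against a median of 7. Matches are letters in a window and no record of binding, and a missing match speaks only for these 300 bases.

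The genes next to the Irx clusters gave a local comparison. The 3 nearest measured genes on each side of each cluster made 12 genes, of which 7 were higher and 5 lower in knockout, with a median of 0.059. None passed in limma over all genes, where 0% of all genes did. Of the 12, 0 had every knockout above every wild-type heart, where 4.57% of all genes did, so for so few genes this count is near that share. Gm36529, Gm36243 and Capns2 were dim, with group means of 3.09 to 4.28. On chromosome 8, Fto, an RNA demethylase gene whose introns hold enhancers of Irx3, had 8.42, 8.67 and 8.64 in knockout hearts, against 8.35, 8.57 and 8.62 in wild-type hearts. Its groups overlapped, with a difference of 0.064 ± 0.10 (SE). Mmp2, a matrix metalloproteinase gene beyond Irx6, differed by 0.12 ± 0.12 (SE). Crnde, a long noncoding RNA gene between Irx3 and Irx5 that was added after its position was seen, differed by -0.043 ± 0.08 (SE). On chromosome 13, Mrpl36, a mitochondrial ribosome protein gene, differed by 0.072 and Lpcat1, a phospholipid enzyme gene, by -0.13. Of the 12 genes, 2 had all knockout hearts below all wild-type hearts, Lpcat1 and Eprn, where 4.28% of all genes did.

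**Figure D2:**
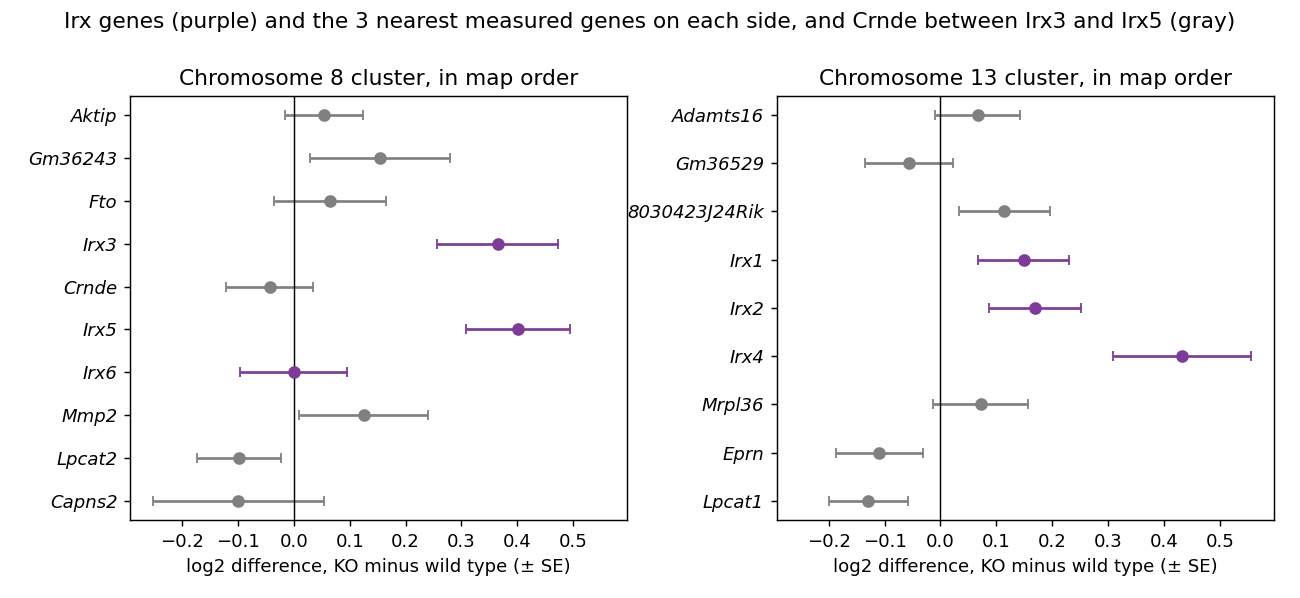
log2 differences, knockout minus wild type, with limma's SE (horizontal axis), for Irx genes (purple) and neighbouring genes (gray) in map order on chromosome 8 (left) and chromosome 13 (right). Irx3, Irx4 and Irx5 lie between 0.36 and 0.43, and the neighbours between -0.13 and 0.15.

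Genes reported with Irx factors in heart, from general knowledge, were mixed in direction. Of 36 listed genes 33 were measured; 19 were higher and 14 lower in knockout, with a median difference of 0.016. Over all genes 0 passed in limma. In the blocked fit, 1 passed upward (Myh7) and 1 downward (Kcnd2), where 0.0715% of all genes passed. The groups did not overlap for 5 of the 33, with knockout above for Kcnip2 and Gata6 and below for Kcnd2, Bmp10 and Trps1. Over all genes, 4.57% had knockout above and 4.28% had knockout below.

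Kcnd2, a pore gene of the transient outward potassium current and a target of Irx5 in mouse ventricle, had 6.74, 6.17 and 6.53 in knockout hearts, against 7.59, 7.31 and 7.15 in wild-type hearts. All knockout hearts were below all wild-type hearts, opposite in direction to Irx5. The difference was -0.87 ± 0.16 (SE) (limma, adjusted p = 0.72 without and 0.0318 with the replicate block). Within each group the first replicate was the highest heart for Kcnd2 and the lowest for Irx5. The lowest hearts for Kcnd2 were knockout replicate 2 and wild-type replicate 3, which were the middle ones for Irx5. Of its 4 probe sets, 3 were lower and 1 was higher in knockout. Kcnip2, the partner subunit of that channel, had 10.04, 10.15 and 10.39 in knockout hearts, against 9.44, 9.91 and 9.69 in wild-type hearts. Its difference was 0.52 ± 0.13 (SE), and all 3 of its probe sets were higher. Smyd1, a muscle methyltransferase reported to act with Irx5 on Kcnd2, had 10.11, 10.43 and 10.24 in knockout hearts, against 10.27, 10.52 and 10.16 in wild-type hearts, which overlapped.

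The connexin gene Gja1, reported as regulated by Irx3, had 12.81, 12.98 and 12.99 in knockout hearts, against 12.52, 12.84 and 12.82 in wild-type hearts. The groups overlapped, with a difference of 0.20 ± 0.10 (SE) and all 6 of its probe sets higher. Gja5, the connexin of the conduction system, was at 5.02 ± 0.04 in knockout and 4.95 ± 0.08 in wild type (SD, n = 3 each), and its groups overlapped. Hey2, a repressor of atrial genes in the ventricle, had 5.72, 6.89 and 6.99 in knockout hearts, against 5.51, 6.16 and 6.05 in wild-type hearts. Hey2 was low in both first replicates, as Irx4 was, and its groups overlapped.

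Myh7, the slow myosin heavy chain, had 9.41, 10.91 and 11.59 in knockout hearts, against 8.18, 9.53 and 9.47 in wild-type hearts. Its groups overlapped because knockout replicate 1 lay below wild-type replicates 2 and 3, and it was higher by 1.58 ± 0.54 (SE). Gata6, a zinc finger factor of the heart, was higher by 0.39 ± 0.14 (SE). Trps1, a repressor of the GATA family, stood at 6.20 ± 0.16 in knockout and 6.49 ± 0.20 in wild type (SD, n = 3 each). Nppb, the stress-induced natriuretic peptide gene, had 9.98, 11.18 and 10.99 in knockout hearts, against 10.99, 11.59 and 11.75 in wild-type hearts, which overlapped. Bmp10, a growth factor of atrial and trabecular muscle, had 6.01, 6.15 and 5.80 in knockout hearts, against 6.19, 6.21 and 6.37 in wild-type hearts. Nppa, an atrial peptide gene, had 13.26, 13.42 and 12.16 in knockout hearts, against 13.60, 13.09 and 13.50 in wild-type hearts, which overlapped.

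**Figure D3:**
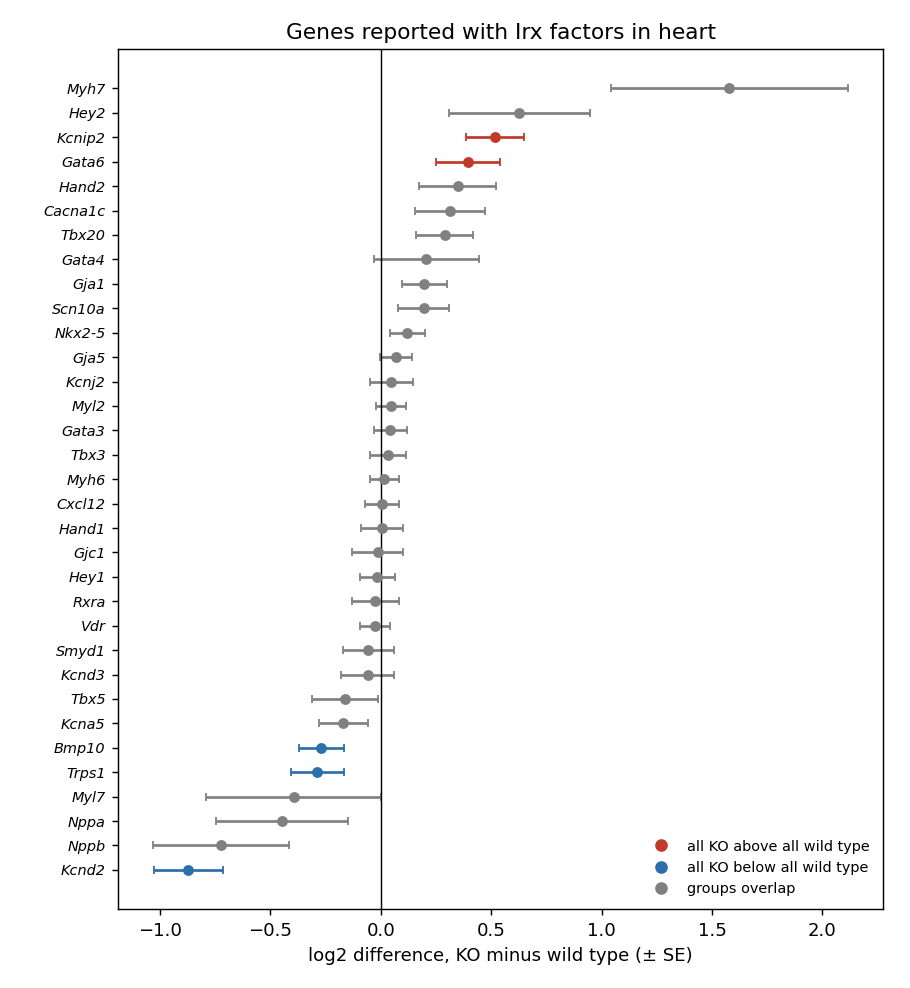
log2 differences, knockout minus wild type, with limma's SE (horizontal axis), for the 33 measured genes reported with Irx factors in heart, sorted by difference. Kcnip2 and Gata6 (red) had all knockout above all wild-type hearts, Kcnd2, Bmp10 and Trps1 (blue) all below, and the groups of the other genes (gray) overlapped.

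Levels of the cell types that a dissected heart can hold were set beside the Irx values. All 6 atrial muscle markers were lower in knockout, with a median difference of -0.42, and their list mean was 10.46, 10.90 and 9.49 in knockout hearts, against 10.96, 10.37 and 10.94 in wild-type hearts. Knockout replicate 3, the lowest of these, was the highest heart for Irx3, Irx4 and Irx5. Wild-type replicate 2, the lowest wild-type heart, was the highest of its group for Irx3 and Irx5. For Irx4 it lay below wild-type replicate 3 (8.58 against 8.60). Knockout replicate 2 had the highest list mean of the knockout hearts, 10.90, above that of wild-type replicate 2. The Irx3, Irx4 and Irx5 levels of knockout replicate 2 were 8.46, 9.02 and 7.38, the middle ones of the knockout group. The part of atrial tissue in the Irx differences was not tested. In whole hearts, more cells of a type and more RNA per cell cannot be told apart.

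Irx3 and Irx5 are also used in fat, and several Irx genes in lung. The list mean of 6 brown fat markers was 8.06 to 9.01 in knockout and 7.99 to 8.76 in wild-type hearts, highest in both first replicates. Of that list, Ucp1 and Cidea were highest in both first replicates, and Elovl3, Cox8b, Dio2 and Ppargc1a were not. Ucp1 stood at 10.39 and 9.45 in knockout and wild-type replicate 1 and between 5.22 and 6.68 in the other hearts. The 4 measured white fat markers averaged 6.96 to 8.01 in knockout and 7.03 to 7.79 in wild-type hearts. Adipoq and Retn were highest in both first replicates, and Lep and Fabp4 were not. Both first replicates were the lowest hearts of their groups for Irx4 and Irx5 and the highest for Irx6. For Irx3, replicate 1 was the lowest knockout and the middle wild-type heart, and for Irx1 it was the highest knockout and the lowest wild-type heart. For Irx2 it was the middle knockout and the lowest wild-type heart. The part of fat in the Irx values was not tested. The 7 measured lung markers averaged 5.49 to 5.81 in knockout and 5.61 to 5.65 in wild-type hearts, and Sftpc, the surfactant gene of lung, stood at 7.07 in knockout replicate 2 and between 5.27 and 5.76 elsewhere. Endothelial and endocardial markers averaged 8.72 to 9.07 in knockout and 8.74 to 8.96 in wild-type hearts, and 4 of 6 were higher. Of 4 measured conduction tissue markers 1 was higher in knockout. Fibroblast markers were higher in 1 of 6, epicardial markers in 2 of 6 and thymus and lymphoid markers in 0 of 6. Skeletal muscle markers were higher in 3 of 6 and ventricular muscle markers in 5 of 6. No marker in these lists passed over all genes. The thymus and lymphoid list mean was 6.42 in wild-type replicate 1 and 5.67 to 5.99 in the other hearts. All of these markers but Cd8a were highest there, with Rag1 at 5.90 against 3.68 to 4.52 elsewhere. Their part in the Irx values was not tested.

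The separation of the groups was also counted on fewer hearts, a choice made after the data were seen. A gene separated with all hearts stays separated on any part of them, so only Irx2 and Irx6 could change here. Without replicate 1 of both groups, Irx1, Irx3, Irx4 and Irx5 were the members with all knockout above all wild-type hearts, where 24.3% of all genes were. With the high-Xist hearts only, knockout replicate 2 against the 3 wild-type hearts, the same 4 genes were above, where 33.8% of all genes were. In that comparison, Irx4 differed by 0.53, Irx5 by 0.45 and Irx3 by 0.34, beside 0.43, 0.40 and 0.36 with all hearts. Irx1 differed by 0.085 and Irx2 by 0.058 there, beside 0.15 and 0.17 with all hearts. No low-Xist wild-type heart was among the samples, so sex cannot be told apart from genotype in knockout replicates 1 and 3.

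When hearts were paired by replicate number in the blocked fit, Irx4 differed by 0.43 ± 0.07 (SE), Irx5 by 0.40 ± 0.07 and Irx3 by 0.36 ± 0.11, and 0 of the 6 genes passed (limma, adjusted p = 0.111 for Irx4, 0.161 for Irx5 and 0.483 for Irx3). Without the third pair the blocked Irx3 difference was 0.20. When limma weighted the arrays by their fit, Irx3, Irx4 and Irx5 passed over all genes (differences of 0.49, 0.52 and 0.45, adjusted p = 0.0385, 0.0232 and 0.0211), where 1.3% of all genes passed in this direction. Knockout replicate 3 then had a weight of 4.74, knockout replicate 1 a weight of 0.22, and the other hearts weights of 0.60 to 1.56. With weights fitted over all probe sets instead, 0 of the 6 passed, where 0.0533% of all probe sets did.

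**Figure D4:**
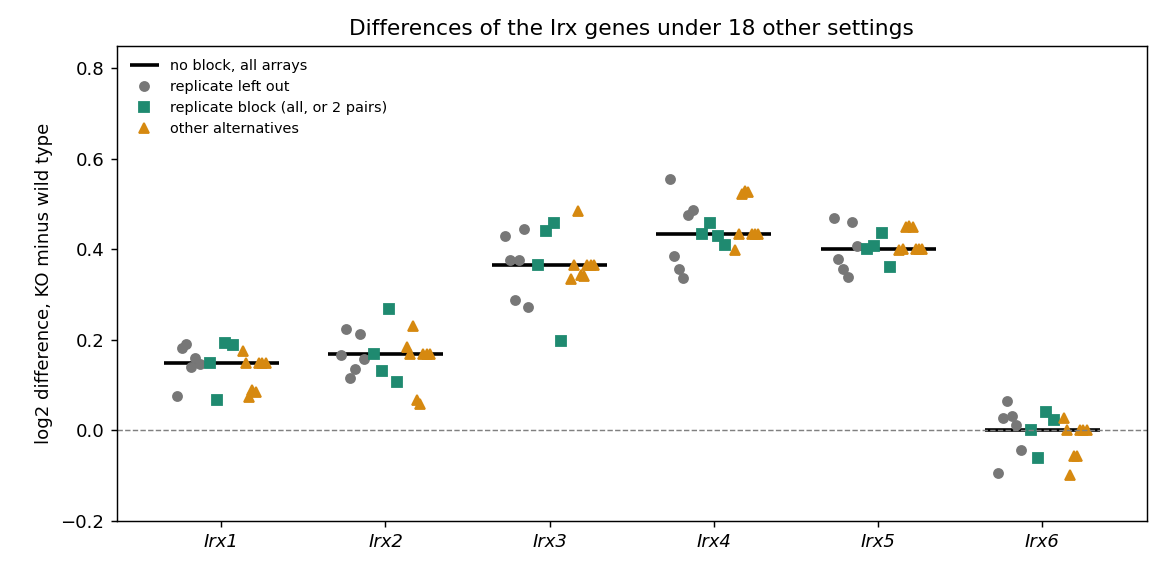
log2 differences, knockout minus wild type (vertical axis), of the 6 Irx genes with all hearts and no block (black lines) and under 18 other settings (points), grouped into fits without 1 heart, fits blocked by replicate number and other choices. Irx3, Irx4 and Irx5 stay above 0 at every point, from 0.20 to 0.55, and Irx6 falls on both sides of 0. Settings that change only the variance or the gene summary repeat the black line, and all settings reuse the same hearts.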

How the data were processed

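RNA was extracted with Trizol, amplified with biotin label and hybridised to Affymetrix arrays, per the labels' protocols. The deposited log2 values are RMA values computed by the authors with the affy package, per the series' design text, after scanning with GCOS 1.4, per the submitters' processing notes. RMA forces the probe intensities of all arrays to one distribution, so changes shared by most genes are lost, and it compresses low values. The medians of the probe set values still differed between arrays, from 6.03 to 6.11. Arrays correlated at 0.991 to 0.997 and 0 pairs were identical. Hearts were taken as separate animals, since the design text gives 3 mice per genotype.

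The 64 control probe sets were left out. The brightest of the probe sets naming 1 gene (34945 of 45037) stood for each of 18193 genes, with symbols updated through RefSeq (GRCm38.p6). Groups were compared in limma 3.58.1 (R 4.3.3) with Benjamini-Hochberg adjustment and a threshold of 0.05. The fits were run on simulated data with independent noise and planted changes larger than any Irx difference. That run does not show whether differences of the Irx size can be detected. Each Irx gene has 1 probe set, so the planned test of agreement between probe sets was not run. RefSeq promoter windows matched 3 of the 6 genes.

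The members and gene lists were chosen with earlier results of these data known. From the linked list, values are given for Kcnd2, Kcnip2, Gja1, Smyd1, Nppa, Hey2, Bmp10 and the 4 others with the smallest p, and for Gja5, added afterwards. Deviations of same-numbered hearts from their group means correlated over genes at 0.54, 0.18 and 0.13 for replicates 1, 2 and 3. All exceed 0.1, so the numbers in the titles were used as pairs in the blocked fit, although replicates 2 and 3 correlated more when crossed (0.35 and 0.30). Alternatives were this block, leaving out hearts or pairs, quantile normalization, trend and robust variance, array weights, the Xist level, high-Xist hearts only, a filter on dim probe sets (at least 5 in at least 3 arrays) and other gene summaries.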

Additional observations from a re-analysis of the deposited data

How the results depend on the processing

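The count of Irx genes passing over all genes was 0 in limma with all hearts, 0 with the replicate block and 0 under each other alternative except array weights, where it was 3. Over all probe sets it was 0 under every alternative run. The differences of Irx1 to Irx5 kept their direction in all 18 alternatives, from 0.067 to 0.19 for Irx1, 0.058 to 0.27 for Irx2, 0.20 to 0.49 for Irx3, 0.34 to 0.55 for Irx4 and 0.34 to 0.47 for Irx5. Some alternatives could not change an Irx difference: the block with all hearts, the trend and robust variance, the dim filter and the other gene summaries. All alternatives reuse the same hearts, so their number is no measure of independent support. The Irx6 difference, -5.4e-04 with all hearts, turned positive with a further quantile normalization (0.027) and in the blocked fit without replicate 2 (0.039) or replicate 3 (0.022), and ran from -0.094 to 0.065 when each heart was left out in turn. Its interval spans 0, so it has no direction here. The intervals of Irx1 (-0.036 to 0.33) and Irx2 (-0.019 to 0.36) with all hearts also span 0, so their direction is not settled either. The count of Irx genes with all knockout above all wild-type hearts was 4, where 4.57% of all genes were so separated. It was 4 or 5 when single hearts were left out, where 7.21% to 20.6% of all genes were. The fifth was Irx2, without knockout replicate 2 (8.95% of all genes) or wild-type replicate 2 (7.21%). Leaving out hearts cannot lower this count below 4. Pairing by replicate number changed no call of an Irx gene. The test across 3 hearts a group, 1 probe set a gene and the unbalanced sex limit every value.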
